A study of Mus musculus with 30 samples.

Results

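Lung epithelial cells that had been exposed to an inflammatory cocktail of COPD exacerbations (EC) were compared with lung epithelial cells exposed to a cocktail of lung fibrosis (IPFc). The members were chosen by their labels alone, as the libraries of the Epcam+ fraction (CD45-/CD31-/Epcam+ cells) whose treatment was EC or IPFc, and they were 8 of the 30 libraries of the series, 4 of EC and 4 of IPFc. Mice 1 to 4 each gave 1 EC and 1 IPFc culture. The mice were wild type (WT) C57BL/6J animals, and no other allele is named for either group. They were adults of both sexes, according to the paper.

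In every culture, 300000 freshly isolated Epcam+ lung cells had been seeded in Matrigel beside an equal number of mitomycin C-treated, non-dividing fibroblasts of the mouse lung line CCL206. EC held TNFα, IL-1β, IL-6 and IL-8, and IPFc held 9 factors. TNFα, IL-1β and IL-8 were part of both cocktails and IL-6 of EC alone. IPFc added the type 2 cytokines IL-4 and IL-13, the epithelial alarmins TSLP and IL-33, the chemokine CCL2 and TGF-β. In place of IL-8, the paper names KC, its counterpart in mice, for the mouse cultures. The concentrations in IPFc are not given in the sources used here, so the dose of the shared factors may differ between the cocktails. After 72 hours the organoids were dispersed and the Epcam+ cells were collected with microbeads and sequenced in bulk. Each culture contained fibroblasts, and effects of a cocktail on epithelial cells cannot be told apart from effects that passed through the fibroblasts.

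The cytokines of these cocktails are known to act on lung epithelium through different transcription factors. TNFα and IL-1β activate NF-κB, which drives chemokines and antimicrobial proteins, and IL-6 acts through STAT3. IL-4 and IL-13 share the receptor chain IL-4Rα and act through STAT6, the known driver of the mucous, goblet-like airway epithelium of type 2 inflammation, while TGF-β acts through SMAD proteins on matrix genes and on epithelial differentiation.

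The EC libraries held 11562140 to 17467462 counted reads (median 14096333) and the IPFc libraries 12531825 to 17148721 (median 14179822). Vehicle libraries of the same 4 mice (12402492 to 20317181 reads) serve as the untreated background, and 3 epithelial libraries of cultures with 2 ng/ml TGF-β (mice 2 to 4) are given as values where the TGF-β part of IPFc is concerned. Levels are CPM, the reads of a gene scaled by library size with TMM factors, with the mean ± SD over 4 mice. Fold changes are EC over IPFc on the log2 scale with their standard error (SE), from edgeR's quasi-likelihood test (two-sided) with the mouse as a block, and adjusted p-values are Benjamini-Hochberg values over all genes tested. A gene was called differentially expressed (DEG) at an adjusted p under 0.05.

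The labelled cell type was found in all 8 libraries. Epcam, the surface protein used in the sort, was at 235 to 325 CPM in EC and 224 to 255 CPM in IPFc, and Cdh1, the epithelial cadherin, at 681 to 872 and 641 to 829 CPM. Ptprc, which encodes CD45, did not exceed 0.333 CPM, and Cdh5, an endothelial cadherin, did not exceed 0.0587 CPM in any of the 8. Pecam1, which encodes CD31, reached 0.146 CPM in EC and 0.762 CPM in IPFc. The macrophage marker Cd68 was at 4.34 to 8.08 and 4.56 to 5.98 CPM, and the leukocyte integrin Itgb2 at 2.65 to 4.95 and 2.27 to 5.92 CPM. Fibroblast RNA was present: the share estimated from the fibroblast library of the same culture was 12.2 ± 4.73% in EC and 12.0 ± 5.12% in IPFc (n = 4 each), a difference of 0.182 percentage points (exact two-sided sign-flip permutation test over 4 mice, p = 0.875, and 4 mice cannot give a p under 0.12). In bulk RNA, fewer cells of a type and less RNA per cell cannot be told apart.

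Of 17734 genes tested, 627 were DEGs between EC and IPFc, which is 3.54% of the genes tested. Of these, 263 genes were higher in EC (1.48%) and 364 were higher in IPFc (2.05%). Such shares of all genes are the background for the count of every list below. At an unadjusted p under 0.05, 2273 of the 17734 genes differed between EC and IPFc. A log2 fold change beyond 1 in either direction was reached by 258 DEGs, 112 higher in EC and 146 higher in IPFc, and 618 DEGs had the same direction in 4 of 4 mice. The count depended on single mice: it was 363 without mouse 3 and 946 without mouse 4. The EC and IPFc ranges did not overlap for 441 DEGs and for 1166 genes (6.57%) among all tested. Mouse 4 stood apart in both groups in Krt5, the basal cell keratin, which was at 23.1 CPM in EC and 7.35 CPM in IPFc beside 194 to 429 and 165 to 346 CPM in the other mice. Against vehicle, the same test called 830 genes for EC (4.67%) and 1065 genes for IPFc (5.94%). These 3 comparisons share libraries and are given side by side only. On principal components of the 500 most variable genes, the first component (43.9% of variance) separated EC from IPFc and the second (24.3%) separated the mice. Over all genes tested, the first component (25.3%) followed the mouse more than the cocktail (R2 64.9% and 30.0%), and the second (22.2%) followed the cocktail more (67.4% and 31.9%).

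**Figure D1:**
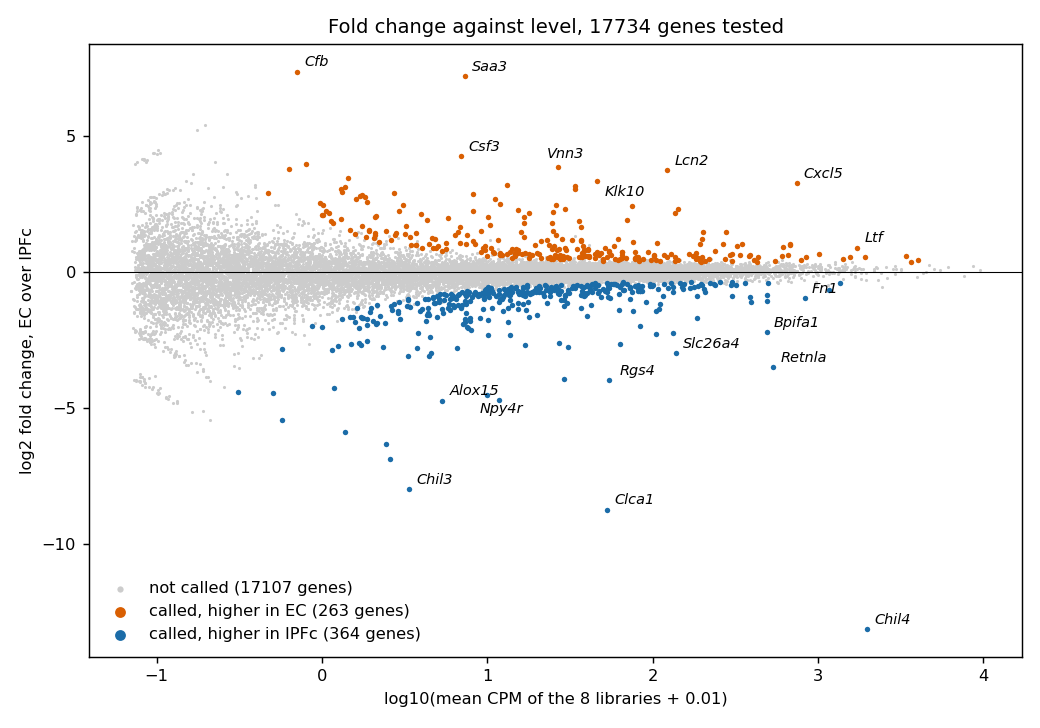
Each point is 1 of 17734 genes, with the mean CPM of the 8 libraries on a log10 axis against the log2 fold change of EC over IPFc. DEGs higher in EC (263) and higher in IPFc (364) are coloured, and Chil4 lies far below all other genes at a log2 fold change of -13.12.

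Promoter sequences were searched for letters of NF-κB, STAT6 and STAT3, and not for those of SMAD proteins. A kB motif was written as GGGA and CC with 4 bases of any kind between them, and the STAT6 spacing as TTC and GAA with 4 bases between them. The STAT3 spacing was written as TTCNNNGAA, with N for any base. Both strands were read and overlapping matches were counted. RefSeq promoters (GRCm38.p6, from 250 bases before to 50 bases after the first listed start) matched 12042 of the 17734 genes by symbol. The kB letters were in 26.3% of these promoters, in 32.3% of the 201 of genes higher in EC and in 31.5% of the 270 of genes higher in IPFc. STAT6 spacing was in 5.3% of all, 7.46% of those higher in EC and 7.41% of those higher in IPFc. For STAT3 spacing the shares were 6.91%, 9.95% and 4.81%. Among DEGs with a log2 fold change beyond 1, 82 promoters were on the EC side and 102 on the IPFc side. Their shares were 31.7% and 27.5% for kB, 3.66% and 9.8% for STAT6 spacing, and 9.76% and 9.8% for STAT3 spacing. No test was made, and a match is only a description of the letters.

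Among the 15 genes per direction with the smallest adjusted p, the kB letters were in 4 of 12 promoters on the EC side (Klk10, Cxcl3, Pglyrp1, Ccl20) and STAT6 spacing in 3 of 14 on the IPFc side (Retnla, Sprr2a3, Prss35). Lcn2 and Saa3 were among those without a kB match, and Chil4, Slc26a4 and Agr2 among those without STAT6 spacing. STAT3 spacing was not counted for these genes. The pair of smallest adjusted p on each side is shown as an example of a promoter with a match. Capitals mark the matches, kB in Klk10 (chr7:43780804-43781103, plus strand) and Cxcl3 (chr5:90785851-90786150, plus strand), and STAT6 spacing in Retnla (chr16:48842359-48842658, plus strand) and Sprr2a3 (chr3:92285054-92285353, plus strand). The capitals in Cxcl3 join 2 overlapping matches, the first of which begins 73 bases before the start.
Klk10: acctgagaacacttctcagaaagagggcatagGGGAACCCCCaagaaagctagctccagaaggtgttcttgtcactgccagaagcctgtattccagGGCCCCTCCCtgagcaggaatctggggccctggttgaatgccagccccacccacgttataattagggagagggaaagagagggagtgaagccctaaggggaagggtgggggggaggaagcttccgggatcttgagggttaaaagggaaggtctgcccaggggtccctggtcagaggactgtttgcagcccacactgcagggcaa
Cxcl3: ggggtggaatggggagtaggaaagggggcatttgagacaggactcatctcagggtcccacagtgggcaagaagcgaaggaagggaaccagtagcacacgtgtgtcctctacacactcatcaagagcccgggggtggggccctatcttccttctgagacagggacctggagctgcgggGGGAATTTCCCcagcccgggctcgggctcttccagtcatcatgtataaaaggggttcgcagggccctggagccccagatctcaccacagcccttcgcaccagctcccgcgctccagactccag
Retnla: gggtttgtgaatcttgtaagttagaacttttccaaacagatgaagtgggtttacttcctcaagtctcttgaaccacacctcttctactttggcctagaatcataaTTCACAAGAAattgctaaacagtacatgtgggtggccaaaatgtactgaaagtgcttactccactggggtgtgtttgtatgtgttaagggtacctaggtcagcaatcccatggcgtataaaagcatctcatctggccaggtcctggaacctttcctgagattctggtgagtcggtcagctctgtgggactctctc
Sprr2a3: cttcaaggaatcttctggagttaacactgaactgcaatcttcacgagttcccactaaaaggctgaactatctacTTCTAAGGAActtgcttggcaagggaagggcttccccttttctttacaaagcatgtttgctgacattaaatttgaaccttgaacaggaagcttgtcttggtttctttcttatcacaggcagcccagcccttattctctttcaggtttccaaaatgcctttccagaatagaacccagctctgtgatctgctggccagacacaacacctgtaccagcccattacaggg

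Transcripts of IL-4 and IL-13 responses gave the largest differences and were higher in IPFc. Of 36 genes tested in a list of known IL-4/IL-13 targets, 12 were higher in IPFc, 4 were higher in EC and 20 were not called, with a median log2 fold change of -0.40 beside -0.01 over all genes. Both the list and its members were chosen with earlier results of these data known. The count higher in IPFc was 12 without each of mice 1, 2 and 3 and 13 without mouse 4.

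Chil4, a secreted chitinase-like protein of type 2 inflammation, was at 4269, 4572, 4116 and 2856 CPM in the IPFc libraries of mice 1 to 4 and at 0.349, 0.801, 0.529 and 0 CPM in their EC libraries. In vehicle libraries Chil4 was between 0.083 and 0.962 CPM, so that IPFc stood apart from both other groups. EC was near vehicle, at 0.420 against 0.443 CPM on average. The log2 fold change was -13.12 (SE 0.23, adjusted p = 1.72e-16), and the value rests on few reads in EC. Chil3, its close paralog on the same chromosome, had 382 reads in IPFc and 1 read in EC, a ratio of 371 with a 95% counting interval of 66.2 to 14697. Reads of Chil3 and Chil4 could have been assigned to either gene, since the handling of such reads in the counting is not stated.

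Clca1, a secreted protein of mucous cells, was at 115, 142, 127 and 40.8 CPM in IPFc and at 0.364 CPM or less in each EC library (log2 fold change -8.74, SE 0.21, adjusted p = 1.93e-14). Retnla, the resistin-like protein RELMα whose promoter is printed with its STAT6 letters, was at 620, 1339, 1127 and 842 CPM in IPFc and at 57.6, 111, 65.2 and 115 CPM in EC. The groups did not overlap for either gene, and Retnla in EC was lower than in vehicle as well (87.2 ± 30.0 against 136 ± 33.2 CPM, adjusted p = 0.0076). Its fold change between the cocktails was -3.49 on the log2 scale (SE 0.16, adjusted p = 1.08e-10). Retnlb, a family member at low level, was at 2.75 to 3.12 CPM in IPFc and at 0.118 to 1.09 CPM in EC (adjusted p = 0.0016).

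**Figure D2:**
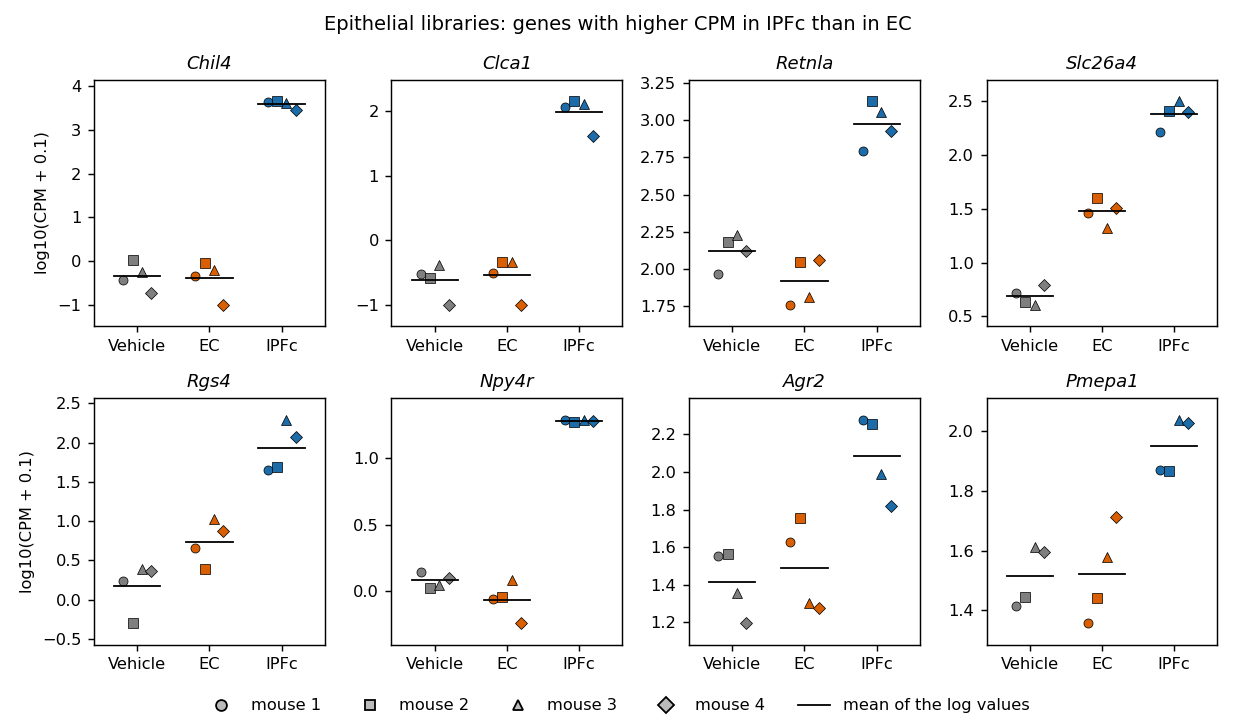
CPM of 8 genes on a log10 scale (0.1 CPM added) in the vehicle, EC and IPFc libraries of each mouse, with the mean of the log values as a bar. In each panel all 4 IPFc points lie above all EC points, and for Slc26a4 and Rgs4 the EC points lie above all or nearly all vehicle points.

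Several ion and acid transporters were among the genes higher in IPFc. Slc26a4 (pendrin), an anion exchanger of the airway surface, was at 162, 255, 314 and 249 CPM in IPFc and 29.0, 39.8, 20.9 and 32.1 CPM in EC, beside 4.84 ± 0.962 CPM in vehicle. It was thus above vehicle in both cocktails, by log2 fold changes of 2.62 in EC and 5.65 in IPFc, and 7.94-fold higher in IPFc than in EC (adjusted p = 3.11e-09). Atp6v1b1, a subunit of the proton pump of acid-secreting cells, was at 29.4 to 79.0 CPM in IPFc, 0.661 to 7.14 CPM in EC and 3.90 to 12.5 CPM in vehicle (log2 fold change -3.94 between the cocktails, SE 0.21, adjusted p = 8.24e-10). The potassium channel gene Kcnj15 was 4.83-fold higher in IPFc (175 ± 23.9 against 36.0 ± 5.79 CPM, adjusted p = 1.63e-09). In the list of epithelial ion and water transport, 4 of 30 genes were higher in IPFc, Slc26a4, Slc34a2, Car2 and Ano1, and 1, the water channel gene Aqp4, was higher in EC. Aqp4 was at 36.4 ± 6.73 CPM in EC, 13.6 ± 5.90 CPM in IPFc and 34.6 ± 6.92 CPM in vehicle, so that the IPFc libraries were the ones that differed from vehicle (adjusted p = 3.5e-08).

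Of 20 genes of prostaglandins and other lipid mediators, 3 were higher in IPFc and 1 in EC, with a median log2 fold change of -0.22. Alox15, a lipoxygenase that oxidises arachidonic acid, was at 10.3, 19.1, 11.1 and 0.559 CPM in IPFc and at 0.0944 to 0.823 CPM in EC, with the IPFc library of mouse 4 inside the EC range (log2 fold change -4.73, SE 0.37, adjusted p = 1.56e-07). Alox12e had 285 reads in IPFc and 3 reads in EC (ratio 92.3, counting interval 31.3 to 450). Pla2g4c, a phospholipase that releases fatty acids from membranes, was not on this list. It was 6.30-fold higher in IPFc, at 109 ± 34.5 against 17.1 ± 4.84 CPM (adjusted p = 8.08e-10). Ptges, the prostaglandin E synthase, went the other way, at 144 ± 9.92 CPM in EC and 99.9 ± 8.53 CPM in IPFc (adjusted p = 0.0068).

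The 4 IL-4/IL-13 list members that were higher in EC were Tff2, Il13ra2, Clca3b and Gcnt3. Il13ra2, the decoy receptor that binds IL-13 without signalling, was at 13.2, 12.1, 15.3 and 24.3 CPM in EC and at 3.07, 2.76, 6.20 and 4.16 CPM in IPFc. The groups did not overlap, and both lay above vehicle (1.24 ± 0.596 CPM), with a log2 fold change of 2.01 between the cocktails (SE 0.20, adjusted p = 2.67e-06). Tff2, a trefoil peptide of mucous cells, was at 12.9 to 29.3 CPM in EC, 1.20 to 4.25 CPM in IPFc and 1.16 to 2.44 CPM in vehicle (log2 fold change 2.68, SE 0.20, adjusted p = 7.24e-08).

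Genes of mucous and goblet cells were split evenly between the cocktails. Of 26 genes tested, 7 were higher in EC (Tff1, Tff2, Pigr, Muc20, Ltf, Muc1, Gcnt3) and 7 in IPFc (Clca1, Agr2, Fcgbp, Bpifb1, Creb3l1, Galnt6, Muc5b), with a median log2 fold change of 0.15. Agr2, an enzyme of mucin folding, was at 190, 179, 97.4 and 66.1 CPM in IPFc and 42.4, 56.7, 19.9 and 18.7 CPM in EC (log2 fold change -1.97, SE 0.12, adjusted p = 7.83e-09). Each IPFc library was above all EC libraries, and EC was not separated from vehicle (27.5 ± 10.1 CPM, adjusted p = 0.39). Fcgbp, a mucus protein that binds mucins, was 6.45-fold higher in IPFc, though the ranges of 6.95 to 55.8 CPM in IPFc and 0.661 to 10.7 CPM in EC overlapped across mice.

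On the EC side, Tff1 was at 21.2, 15.4, 23.5 and 34.6 CPM in EC and at 3.07, 2.35, 1.60 and 3.20 CPM in IPFc, with 7.29 ± 2.91 CPM in vehicle. It was higher than vehicle in EC (log2 fold change 1.72) and lower than vehicle in IPFc (-1.46), and the difference between the cocktails was 3.19 (SE 0.20, adjusted p = 6.93e-09). The TGF-β cultures held 0 to 0.197 CPM of Tff1. Pigr, which carries IgA across the epithelium, was at 384, 486, 178 and 136 CPM in EC and 130, 156, 88.4 and 42.7 CPM in IPFc. Both cocktails lay above vehicle (8.30 to 44.5 CPM) in each mouse, with mouse 4 lowest in each group, and EC exceeded IPFc 2.79-fold (adjusted p = 1.88e-07). The membrane mucin genes Muc20 (2.18-fold) and Muc1 were higher in EC as well, Muc1 at 371 ± 73.4 against 235 ± 12.6 CPM (adjusted p = 0.0018). Muc1 was not called after the fibroblast share was subtracted (edgeR adjusted p = 0.12), and Muc20 was not called without the mouse block (0.051).

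The gel-forming mucins differed less. Muc5b was at 306, 393, 145 and 125 CPM in IPFc and 209, 331, 116 and 31.0 CPM in EC, higher in IPFc in 4 of 4 mice but with overlapping ranges. Its log2 fold change of -0.73 (SE 0.20) had an adjusted p of 0.049 and was not called in 7 of 13 alternatives, among them DESeq2 (adjusted p = 0.45) and the fit without mouse 3. Without mouse 4 it was -0.35 (adjusted p = 0.013). The levels in both cocktails were above vehicle (81.3 ± 37.3 CPM). Muc5ac, the mucin of type 2 airway disease, was at 1.92 ± 1.75 CPM in EC and 1.51 ± 0.727 CPM in IPFc, with an interval of the log2 difference from -0.68 to 0.94. Spdef, a transcription factor of goblet cells, was at 4.63 ± 1.45 and 2.83 ± 0.203 CPM and was not called (adjusted p = 0.16), except without mouse 4 (adjusted p = 0.040).

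**Figure D3:**
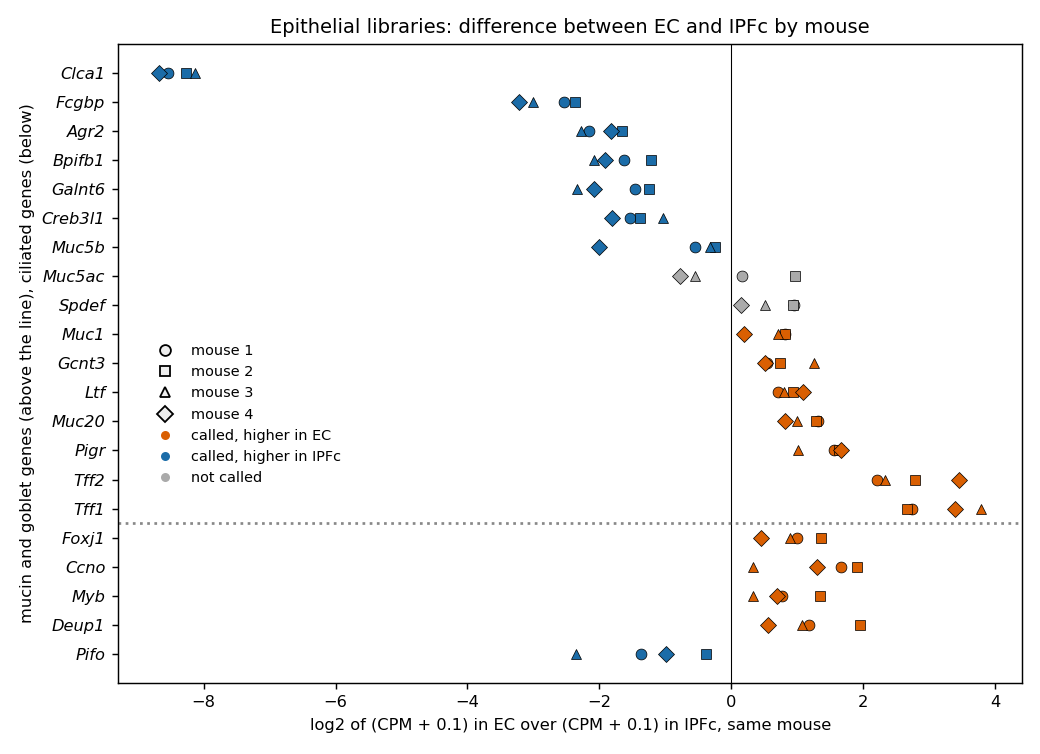
Log2 ratio of EC over IPFc (0.1 CPM added) within each mouse, for mucous and goblet genes above the dotted line and ciliated cell genes below it. The 4 mice fell on the same side of 0 for every coloured gene, while the grey genes, Muc5ac and Spdef, were not called.

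A few ciliated cell genes differed. Of 37 ciliated cell genes tested, 4 were higher in EC (Foxj1, Ccno, Myb, Deup1) and 1, Pifo, was higher in IPFc. These made up 13.5% of the list, beside 3.54% of all genes tested, and the median log2 fold change was 0.17. Foxj1, the transcription factor of motile cilia, was at 31.6, 42.5, 21.1 and 9.73 CPM in EC and 15.8, 16.5, 11.3 and 7.11 CPM in IPFc, higher in EC within each mouse (log2 fold change 0.97, SE 0.15, adjusted p = 4.93e-04). In vehicle Foxj1 was at 24.0 ± 9.09 CPM, near EC (adjusted p = 0.92) and above IPFc (adjusted p = 1.9e-05). Ccno, needed to multiply centrioles, was at 6.42 to 17.7 CPM in EC, 4.12 ± 1.14 CPM in IPFc and 9.06 ± 1.87 CPM in vehicle (adjusted p = 0.0015 between the cocktails). Foxj1, Ccno, Myb, Deup1 and Pifo were not called after the fibroblast share was subtracted. Without the mouse block only Pifo stayed called. The adjusted p over the alternatives reached 0.32 for Foxj1 and 0.10 for Ccno.

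Several CXC chemokines, among them some that attract neutrophils, were higher in EC. All 7 genes tested in a list of CXC chemokines that bind CXCR2 or are close to them in sequence had a positive log2 fold change, 6 were called, and the median was 1.69. DESeq2 called 5 of them, and 3 were called without the mouse block. Cxcl5 was at 1142, 1099, 1196 and 1931 CPM in EC and 96.6, 107, 185 and 180 CPM in IPFc, a 9.64-fold difference (log2 3.27, SE 0.13, adjusted p = 3.04e-11). Every EC library was above every IPFc library, and IPFc in turn was slightly above vehicle (86.6 ± 32.2 CPM, adjusted p = 1.1e-05). Cxcl3 was at 119, 102, 135 and 149 CPM in EC and 21.7 to 26.1 CPM in IPFc (log2 fold change 2.42, SE 0.11, adjusted p = 2.09e-10). Cxcl1, the gene of the KC that was itself in the cocktail, was at 43.9, 60.4, 36.2 and 34.8 CPM in EC and 7.48, 25.2, 16.3 and 37.2 CPM in IPFc. Mouse 4 had more Cxcl1 in IPFc than in EC, and the edgeR call (adjusted p = 0.010) was lost in 6 of 13 alternatives, among them DESeq2 (adjusted p = 0.19) and the fit without mouse 3. Reads of the related genes Cxcl1, Cxcl2 and Cxcl3 could have been split between them. Ccl20, which attracts Th17 and dendritic cells, was at 43.6, 50.5, 32.6 and 48.4 CPM in EC and 5.04, 8.45, 7.07 and 11.9 CPM in IPFc (log2 fold change 2.47, SE 0.16, adjusted p = 1.11e-08), and IPFc was below vehicle (12.6 ± 5.33 CPM, adjusted p = 0.011).

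**Figure D4:**
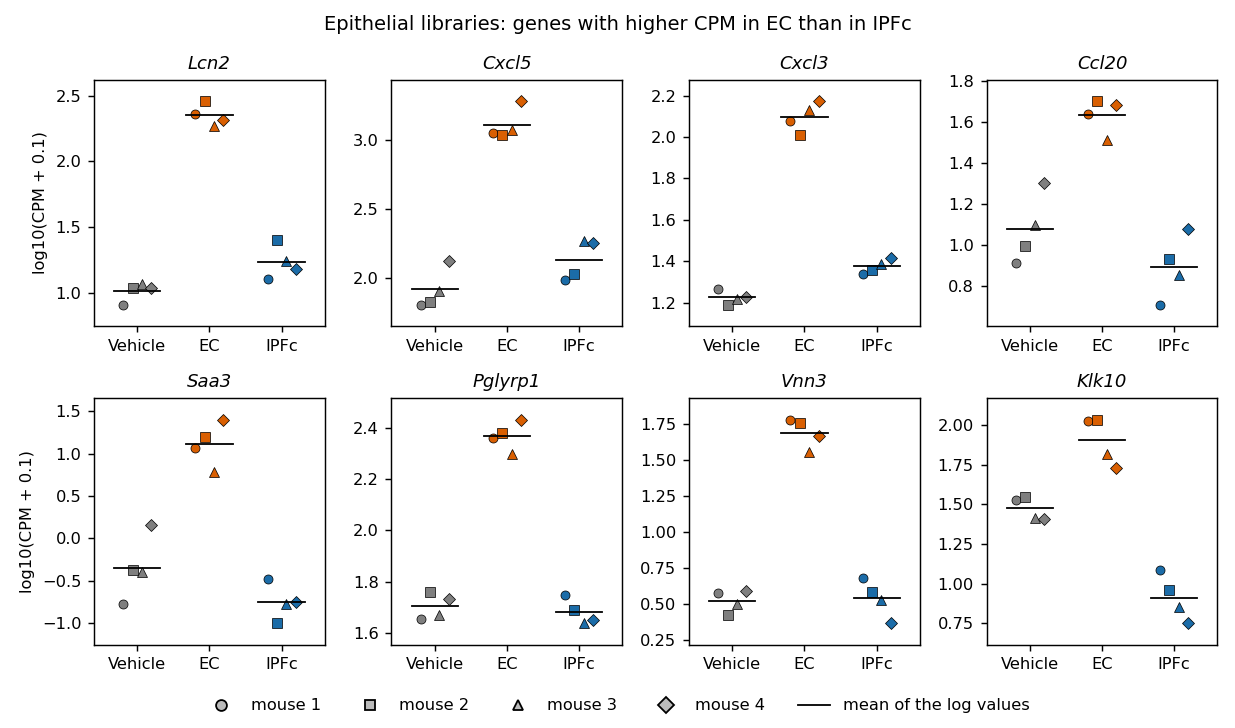
CPM of 8 genes on a log10 scale (0.1 CPM added) in the vehicle, EC and IPFc libraries of each mouse, with the mean of the log values as a bar. In every panel the 4 EC points lie above all IPFc points, and for Klk10 the IPFc points lie below vehicle.

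NF-κB targets, chemokines among them, followed the same direction in part. In a list of 41 TNF and NF-κB targets tested, 7 were higher in EC (12 without mouse 4) and 0 were higher in IPFc. These 7 included Ccl20 and Cxcl1, the chemokines given above. At an unadjusted p under 0.05, the edgeR test had 1 and 17 genes for IPFc and EC, beside 2273 of all 17734 genes. DESeq2 called 0 for IPFc and 7 for EC. The median log2 fold change was 0.14. Csf3, the granulocyte growth factor G-CSF, was at 18.6, 21.3, 8.29 and 4.34 CPM in EC and at most 0.867 CPM in any IPFc or vehicle library (log2 fold change 4.26, SE 0.32, adjusted p = 8.67e-08). Tnfaip2 was 4.42-fold and Zc3h12a, an RNase that degrades cytokine transcripts, 3.14-fold higher in EC. Tnip3, an inhibitor of NF-κB, was at 274 ± 50.6 CPM in EC and 123 ± 34.0 CPM in IPFc, beside 119 ± 11.7 CPM in vehicle (adjusted p = 7.67e-07 between the cocktails). Nfkbia, a direct target and inhibitor of NF-κB, was at 138 ± 35.1 and 137 ± 37.0 CPM, with an interval of the log2 difference from -0.21 to 0.30.

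Secreted defence proteins were called in both directions, more of them for EC. Of 26 genes of secreted defence and the acute phase, 8 were higher in EC (Lcn2, Lyz1, Saa3, Pigr, Slpi, Lrg1, Ltf, Hp), 4 were higher in IPFc (Sprr2a3, Bpifa1, Chia1, Bpifb1) and the median log2 fold change was 0.90. Lcn2, the iron-withholding lipocalin, was at 231, 288, 186 and 206 CPM in EC and 12.7, 24.9, 17.3 and 15.1 CPM in IPFc. The groups were far apart, and the log2 fold change of 3.73 (SE 0.13) had the smallest adjusted p of the EC side, 7.14e-12. Saa3, an acute phase apolipoprotein, was at 11.5, 15.4, 5.94 and 25.1 CPM in EC and at 0 to 0.236 CPM in IPFc (log2 fold change 7.18, SE 0.38, adjusted p = 8.97e-10). Pglyrp1, which binds bacterial peptidoglycan, was at 199 to 270 CPM in EC, 43.3 to 55.6 CPM in IPFc and 50.6 ± 5.90 CPM in vehicle (4.91-fold, adjusted p = 4.98e-10). Slpi, a protease inhibitor of airway fluid, was 3.69-fold higher in EC (56.6 ± 16.9 against 15.1 ± 3.94 CPM), and was not called after the fibroblast share was subtracted (edgeR adjusted p = 0.16). Ltf (lactoferrin) was high in all groups, at 2223 ± 553 CPM in EC, 1216 ± 347 CPM in IPFc and 739 ± 260 CPM in vehicle (adjusted p = 1.24e-05 between the cocktails).

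Lyz1, a lysozyme, was at 53.2, 70.0, 42.4 and 77.4 CPM in EC, 6.45, 7.10, 5.13 and 8.39 CPM in IPFc and 20.7 ± 4.31 CPM in vehicle (log2 fold change 3.16, SE 0.13, adjusted p = 3.06e-11). It thus lay above vehicle in EC and below vehicle in IPFc, and reads shared with Lyz2 could affect it. The kallikrein proteases Klk10 and Klk13 had the same pattern. Klk10 was at 107, 109, 66.2 and 53.8 CPM in EC, 5.51 to 12.0 CPM in IPFc and 30.1 ± 5.10 CPM in vehicle (10.1-fold between the cocktails, adjusted p = 2.46e-11). In the TGF-β cultures, Lyz1 was at 0.665 to 2.26 CPM, Klk10 at 0.0756 to 1.18 CPM and Klk13 at 0 to 0.453 CPM. Vnn3 and Vnn1, pantetheinases, were 14.3-fold and 3.72-fold higher in EC.

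Bpifa1 (SPLUNC1), an abundant secreted airway protein, went the other way, at 872, 999, 840 and 495 CPM in IPFc and 171, 279, 137 and 114 CPM in EC, with vehicle between them (362 ± 131 CPM). The log2 fold change was -2.22 (SE 0.12, adjusted p = 1.26e-09), and EC was below vehicle (adjusted p = 1.5e-06) while IPFc was above it (adjusted p = 1.3e-11). Sprr2a3, a small proline-rich protein whose family members are near copies, was 4.75-fold higher in IPFc, at 171 to 263 against 36.5 to 61.6 CPM. Chia1, the acidic chitinase, was at 36.0, 63.5, 73.5 and 42.9 CPM in IPFc and 5.41 to 10.2 CPM in EC (adjusted p = 7.41e-08).

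Complement genes were divided, with 3 of 22 higher in EC (Cfb, C1ra, C1s1) and 3 higher in IPFc (Hc, Masp1, Cd55). Cfb (factor B) had 77 reads over the EC libraries and none over the IPFc libraries, at least 26.4-fold higher in EC against a floor of 3 counts over the group. Hc, which encodes C5, was at 7.34, 9.47, 5.82 and 7.27 CPM in EC and 32.5, 52.7, 59.4 and 42.8 CPM in IPFc, and vehicle was at 30.1 ± 3.31 CPM (log2 fold change -2.63 between the cocktails, SE 0.17, adjusted p = 8.68e-09). After the fibroblast share was subtracted, only Hc of these 6 was called, while Cfb had an adjusted p of 0.097 and Cd55 one of 0.18. C3, which all complement pathways share, was at 559 ± 131 and 522 ± 131 CPM, above vehicle (285 ± 25.5 CPM) in both.

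The MHC class II genes that differed were lower in EC. Of 10 tested, 3 were called, H2-Aa, H2-Eb1 and H2-Ab1, all higher in IPFc, and the median log2 fold change was -0.79. H2-Aa was at 0.699, 1.60, 1.53 and 3.97 CPM in EC and 2.68, 9.38, 9.40 and 4.88 CPM in IPFc, and vehicle was at 6.75 ± 0.803 CPM (log2 fold change -1.82, SE 0.33, adjusted p = 0.0028). H2-Aa and H2-Eb1 were not called without mouse 3, and 0 of the 10 genes remained called then. Of 10 immune reference genes tested, 2 were higher in EC (Cd14, Mrc1) and 0 were higher in IPFc, with a median log2 fold change of 0.15. The ranges of Cd68 and Itgb2 overlapped. The summed level of all 29 listed immune reference genes was 403 to 495 CPM in EC and 205 to 253 CPM in IPFc. That sum was mostly Cd14, an LPS co-receptor, at 426 ± 39.5 CPM in EC and 221 ± 19.0 CPM in IPFc, and Ptprc was near 0 in all libraries. Mrc1, a macrophage mannose receptor, was also higher in EC (6.44 ± 1.60 against 1.45 ± 0.417 CPM), and the part of immune cells in the results was not tested. Interferon-stimulated genes showed no call among 42 tested by edgeR or DESeq2, and 2 calls without mouse 4. By edgeR, 3.54% of all genes were called, a share at which few calls fall in a list of this size. At an unadjusted p under 0.05, 0 genes of the list were higher in EC and 5 higher in IPFc, beside 2273 of all 17734 genes.

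**Figure D5:**
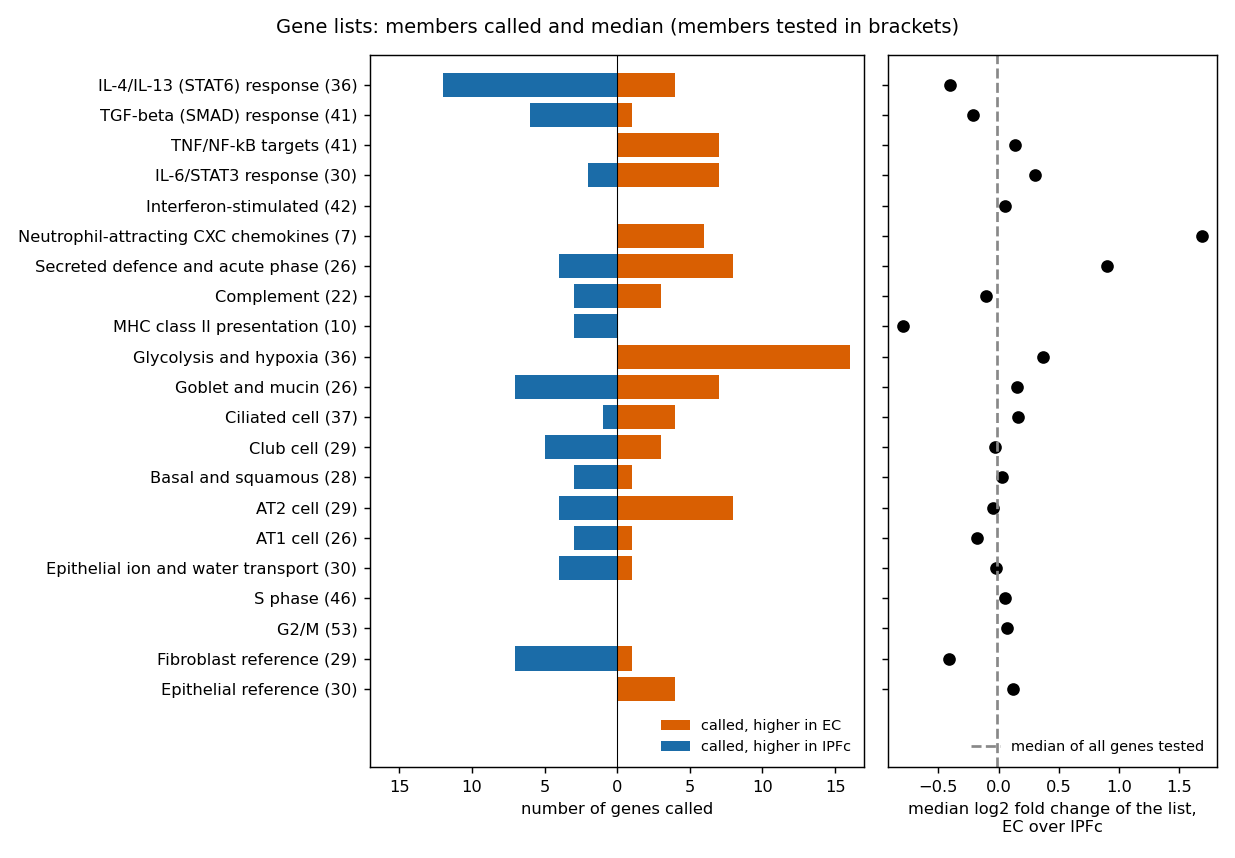
Number of genes called in each of 21 lists (bars to the right, higher in EC, and to the left, higher in IPFc) and the median log2 fold change of each list (points), with the number of genes tested in brackets. The dashed line is the median over all 17734 genes.

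The glycolysis and hypoxia genes that were called were higher in EC. Of 36 tested, 16 (44.4%) were higher in EC and 0 were higher in IPFc, beside 1.48% and 2.05% of all genes tested. At an unadjusted p under 0.05, 25 were higher in EC and none in IPFc, beside 2273 of all 17734 genes in either direction. DESeq2 called 18 for EC and 0 for IPFc. The median log2 fold change was 0.37, and the count was 10 without mouse 1 and 9 without mouse 3. Slc16a3 (MCT4), the exporter of lactate, was at 38.3, 40.6, 71.2 and 47.9 CPM in EC and 9.76 ± 1.60 CPM in IPFc, 5.00-fold apart (adjusted p = 2.26e-08). IPFc lay at the level of vehicle (10.4 ± 1.38 CPM). Ldha, lactate dehydrogenase, was at 3734, 3690, 3765 and 5181 CPM in EC and 2624 to 2832 CPM in IPFc (1.49-fold, adjusted p = 0.0031), with the EC library of mouse 4 far above the other 3. Pgk1 had the same pattern, at 1144, 1110, 1162 and 1571 CPM in EC and 752 to 808 CPM in IPFc. Hif1a, the hypoxia-inducible factor itself, was higher in EC by 0.56 on the log2 scale (SE 0.10, adjusted p = 0.0027). After the fibroblast share was subtracted, Slc16a3 was still called. Ldha, Pgk1 and Hif1a were not called then (edgeR adjusted p = 0.19, 0.093 and 0.067). Over 13 alternatives, log2 fold changes ran from 0.46 to 0.63 for Ldha, 0.56 to 0.71 for Pgk1 and 0.49 to 0.62 for Hif1a.

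Genes of the IL-6/STAT3 response, of which IL-6 was in EC alone, were called 7 times for EC (Saa3, Cebpd, Hif1a, Ptges, Tnfrsf1b, Lifr, Pim1) and 2 times for IPFc (Socs2, Pim3) among 30 tested, with a median of 0.31. The EC count was 3 without mouse 3 and 11 without mouse 4. Cebpd, a transcription factor of the acute phase, was at 28.3 to 36.7 CPM in EC and 9.53 to 19.3 CPM in IPFc (log2 fold change 1.18, SE 0.14, adjusted p = 3.22e-05). Socs3, the feedback inhibitor of STAT3, was at 60.9 ± 11.9 and 59.7 ± 14.5 CPM, with an interval of the log2 difference from -0.18 to 0.28.

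Of 41 TGF-β response genes tested, 6 were higher in IPFc (Pmepa1, Timp3, Fn1, Bhlhe40, Acta2, Nedd9; 12 without mouse 4) and 1, Wnt4, was higher in EC, with a median log2 fold change of -0.21. Pmepa1, a SMAD-induced inhibitor of TGF-β signalling, was at 73.9, 73.3, 109 and 107 CPM in IPFc and 22.6, 27.6, 37.9 and 51.6 CPM in EC (log2 fold change -1.41, SE 0.12, adjusted p = 6.54e-07). EC was at the level of vehicle (33.4 ± 7.73 CPM), and the TGF-β cultures held 237 to 249 CPM. Fn1 (fibronectin) was at 1402, 1427, 634 and 963 CPM in IPFc and 677, 756, 353 and 446 CPM in EC, beside 6862 to 8410 CPM in the TGF-β cultures. Its ranges overlapped, and the ratio was the same way in 4 of 4 mice (1.96-fold, adjusted p = 3.55e-06). Fn1 was no longer called without the mouse block, with an offset for the expected mixture, or after the fibroblast share was subtracted. Its log2 fold change ran from -4.08 to -0.10 over 13 alternatives. Timp3, Bhlhe40, Acta2 and Nedd9 lost their calls under that subtraction too, with log2 fold changes of -0.69, -0.61, -1.19 and -0.48 there beside -1.12, -0.58, -0.92 and -0.44 without it. Rgs4, an inhibitor of G protein signalling that was on no list, was at 45.2, 49.3, 197 and 119 CPM in IPFc, 4.47, 2.33, 10.6 and 7.37 CPM in EC and 43.9 to 68.4 CPM in the TGF-β cultures (log2 fold change -3.98 between the cocktails, SE 0.16, adjusted p = 2.71e-11).

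Genes of the fibroblast reference list differed between the cocktails. The estimated share of fibroblast RNA was 12.2% in EC and 12.0% in IPFc. It was computed from these same genes as a ratio to the fibroblast library of the same culture. The share therefore does not show whether their level in the fibroblasts differed between the cocktails. Of 29 fibroblast reference genes tested, 7 were higher in IPFc (16 without mouse 4) and 1, Dcn, was higher in EC, and their median was -0.41. The summed level of all 32 listed genes was 1636 to 3135 CPM in EC and 2159 to 4923 CPM in IPFc. What part fibroblast RNA has in the matrix results was not tested beyond the subtraction.

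Of the receptors for the cocktail factors, 3 were called and the others were not. Il4ra was at 340 ± 72.1 CPM in EC and 338 ± 39.2 CPM in IPFc, with an interval of the log2 difference from -0.22 to 0.22, and both lay above vehicle (244 ± 30.8 CPM). Those called were Il13ra2 and Tnfrsf1b (EC) and Il1rl1 (IPFc). Il1rl1, the IL-33 receptor ST2, was at 7.56, 8.21, 6.40 and 9.51 CPM in IPFc and 2.59, 3.64, 1.65 and 3.59 CPM in EC (log2 fold change -1.49, SE 0.21, adjusted p = 2.01e-04). That difference was not called after the fibroblast share was subtracted or with an offset for the expected mixture. Its log2 fold change ran from -1.61 to -0.24 over 13 alternatives, and the TGF-β cultures held 39.1 to 44.6 CPM. Il33 itself, an alarmin that was in IPFc as a protein, was at 349, 304, 306 and 438 CPM in EC and 191, 178, 251 and 319 CPM in IPFc, higher in EC within each mouse (1.52-fold, adjusted p = 0.0024). Both cocktails were above vehicle (159 ± 32.9 CPM). The Il33 difference was not called without the mouse block or after the fibroblast share was subtracted (edgeR adjusted p up to 0.18). The TGF-β ligand genes differed in direction, Tgfb1 and Tgfb2 being higher in EC and Tgfb3 in IPFc.

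Alveolar marker genes differed in part. Of 29 AT2 genes tested, 8 were higher in EC (Lyz1, Chil1, Il33, Cd36, Cxcl15, Lamp3, S100g, Ctsh; 3 without mouse 1) and 4 in IPFc (Hc, Egfl6, Slc34a2, Lpcat1), with a median of -0.05. Sftpc, the surfactant protein that defines AT2 cells, was at 1614, 2024, 1256 and 3173 CPM in EC and 2161, 3732, 3250 and 2354 CPM in IPFc. It was not called (log2 fold change -0.56, interval -0.95 to -0.16, adjusted p = 0.15), being lower in EC in mice 1 to 3 and higher in mouse 4. Without mouse 4 it was called (log2 fold change -0.87). Both groups were below vehicle (4121 ± 700 CPM). Lamp3, of lamellar bodies, was at 204 ± 56.7 CPM in EC and 128 ± 30.8 CPM in IPFc, higher in EC in 3 of 4 mice (adjusted p = 0.013) and not called without mouse 1. Of 26 AT1 genes, 1 was higher in EC and 3, Col4a3, Sema3a and Col4a4, were higher in IPFc, 15.4% of the list beside 3.54% of all genes tested. Pdpn, the AT1 gene higher in EC, was at 21.7 ± 10.1 against 13.9 ± 5.83 CPM (adjusted p = 0.013, not called without mouse 2), and Ager, the AT1 receptor RAGE, was at 108 ± 30.6 and 130 ± 29.2 CPM, called only without mouse 4 among 13 alternatives (log2 fold change -0.52 beside -0.27, adjusted p = 0.010).

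Krt4, a keratin of differentiating squamous and hillock-like airway cells, was at 62.2, 53.2, 57.1 and 51.0 CPM in EC and 199, 172, 125 and 119 CPM in IPFc, with vehicle at 204 ± 29.1 CPM (log2 fold change -1.42, SE 0.12, adjusted p = 5.56e-07). Krt13, its partner keratin, had the same direction (adjusted p = 0.032). In the list of basal and squamous genes, 3 of 28 were higher in IPFc (Krt4, Trp63, Krt13) and 1, Krt6a, was higher in EC (7 without mouse 4). DESeq2 called 3 for EC and 2 for IPFc, and without mouse 3 the counts were 0 and 1. Trp63 was not called by DESeq2, and Krt13 was not called in 8 of 13 alternatives. Among cell cycle genes, 0 of 46 S phase and 0 of 53 G2/M genes were called by edgeR, beside 3.54% of all genes tested. Few calls fall in lists of this size at that share. At an unadjusted p under 0.05, 1 S phase gene and 5 G2/M genes differed, beside 2273 of all 17734 genes, and DESeq2 called 0 and 1. Mki67, the proliferation marker, was at 672 ± 138 CPM in EC and 679 ± 42.1 CPM in IPFc, with an interval of the log2 difference from -0.30 to 0.24.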

How the data were processed

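Bulk RNA-sequencing of re-sorted epithelial cells was analysed in 8 libraries (EC and IPFc, 4 mice each), with 4 vehicle and 3 TGF-β epithelial libraries and the fibroblast libraries of the same cultures as references. The authors used Trimmomatic 0.30 for trimming and DESeq2 1.34.0 for their own tests, gave GRCm38.p6 (paper) or GRCm39 (labels) as genome build, and deposited whole-number read counts for 55487 Ensembl genes, without normalization. The aligner, the counting tool and the use of strand are not given in the sources used here, so genes that overlap, lie antisense or have near copies carry that uncertainty. Copies of a fragment made by PCR are not marked, and intervals and floors cover counting error only.

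From the deposited counts, genes averaging 1 or more reads across the 8 libraries were tested with edgeR 4.0.16 in R 4.3.3 (TMM, quasi-likelihood F test, mouse as block, Benjamini-Hochberg). The biological coefficient of variation was 13.7%, with 3 residual and 14.0 prior degrees of freedom. In data simulated for this comparison over 17385 genes, the test recovered 8 of 50 genes changed 1.5-fold, 45 of 50 changed 2-fold and all 50 changed 4-fold and 8-fold, with 6 unchanged genes called. The changed genes were drawn from those averaging at least 50 reads. All genes had the same dispersion, estimated with the mouse but not the cocktail in the model. Recovery of changed genes with fewer reads was not simulated. The pairing rests on the mouse number in the labels, and the paper states a paired analysis. Deviations from the group means had a mean correlation of 0.19 for same-mouse pairs (0.15 to 0.25) and -0.06 for other pairs. The chi-square between any 2 libraries of a group, divided by its degrees of freedom, was at least 5.48, so none was a repeat of another. Where genes shared a symbol (114 symbols, 234 genes), a list took the gene with most reads.

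The share of fibroblast RNA was the median ratio of CPM, epithelial over fibroblast library of the same culture, over fibroblast reference genes that reached 50 CPM in that partner library. The comparison, the gene lists and the rules were chosen with earlier results of these data known. Named genes were the 15 per direction with the smallest adjusted p (log2 fold change beyond 1, same direction in 4 of 4 mice, mean CPM of at least 1, no predicted models), up to 5 called genes per direction of each list, factors and receptors of the cocktails, genes the paper names, and defining cell markers. C3, Cxcl2, Ldha, Lifr, Lrg1, Mki67, Nedd9, Nfkbia, Pim1, Retnlb and Socs3 fall outside this rule and were chosen after their values were seen. Alternatives were DESeq2 1.42.0, its size factors, other filters, no block, robust estimation, a joint model of all 15 epithelial libraries, omission of each mouse in turn, subtraction of the fibroblast share, and an offset for the expected mixture.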

Additional observations from a re-analysis of the deposited data

Results flagged for a closer look

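Within the groups of 4 libraries, 14 of the 268 sets of values examined for genes named above had 1 library far from the other 3, where chance alone gives about 1 in 20. In the EC library of mouse 4, Cxcl5 was at 1931 CPM (others 1099 to 1196), Cxcl15 at 3175 (1886 to 2104), Ldha at 5181 (3690 to 3765), Pgk1 at 1571 (1110 to 1162) and S100g at 41.4 (19.3 to 21.0), each above the others. In the EC library of mouse 3, Cdh1 was at 872 CPM (681 to 701) and Tgfb3 at 74.4 (52.4 to 54.7), both above, while C1s1 was at 23.8 (64.7 to 72.9), Masp1 at 5.47 (14.6 to 16.4) and Noxo1 at 23.2 (30.6 to 32.1), all below. Lgr5 was at 16.6 CPM (12.3 to 12.5) and Chil3 at 0.0699 CPM (0 in the others) in the EC library of mouse 1. Among IPFc libraries, Tgfb3 was at 118 CPM in mouse 3 (74.0 to 80.4) and Cldn10 at 8.71 CPM in mouse 4 (12.8 to 13.1).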

How the results depend on the processing

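Of 121 called genes named above, 53 were called in all 13 alternatives. DESeq2 called 622 genes, 582 of them among the 627, and robust estimation, DESeq2's size factors, a stricter filter and 1 model of 15 libraries gave 617, 630, 546 and 753. Without a filter on low counts, 951 genes were called, 414 of them higher in EC. Without the replicate block (mouse), which the paired cultures call for, 264 were called, 122 higher in EC and 142 in IPFc, 170 of them beyond a log2 fold change of 1, and 308 and 274 were called for EC and IPFc against vehicle. After subtraction of the fibroblast share, 187 were called (84 and 103, and 136 beyond 1), and with the mixture offset 358 (159 and 199). Leaving out each mouse gave 363 to 946 calls, 159 to 441 higher in EC and 204 to 505 higher in IPFc, and 531 to 1522 for EC against vehicle. Mouse 3 gave the lowest and mouse 4 the highest of each of the first 3. The cause was not tested. The fibroblast share difference from Xist was 8.81 percentage points (SD 17.3, exact sign-flip permutation p = 0.375), with mouse 1 at 44.2% in EC and 10.3% in IPFc. The sex of each mouse was not taken into account. Epithelial cells of a female mouse make Xist themselves, so that this ratio can stand for a fibroblast share only in a male mouse.

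Among the named genes, 46 calls were lost without the block of paired mice, 58 after subtraction and 27 with the mixture offset. Without mouse 3, 29 calls were lost (Acta2, Adh7, Ano1, Car2, Cd55, Col4a4, Ctsh, Cxcl1, Dcn, Deup1, H2-Aa, H2-Ab1, H2-Eb1, Krt13, Krt6a, Lifr, Lpcat1, Muc5b, Nedd9, Pifo, Pim1, Pim3, Ptges, S100g, Socs2, Tgfb1, Tnfrsf1b, Trp63, Wnt4). Without mouse 2, 14 were lost (Ano1, Cd55, Ctsh, Deup1, Krt13, Krt6a, Lifr, Lpcat1, Myb, Nedd9, Pdpn, Pim3, Socs2, Tnfrsf1b), and without mouse 1, 14 (Cd36, Ctsh, Cxcl15, Deup1, Krt13, Lamp3, Lifr, Lpcat1, Nedd9, Pim1, Pim3, S100g, Tnfrsf1b, Wnt4). None was lost without mouse 4. Adjusted p over the alternatives reached 0.857 for Muc5b, 0.278 for Cxcl1, 0.280 for H2-Aa, 0.287 for Lamp3, 0.658 for Pdpn and 0.999 for Fn1 and Il1rl1.

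A called direction turned only for Masp1, to 6.11 after subtraction and 0.059 with the offset, and for C1s1, to -0.0042 with the offset, neither called there. Genes near 0 that were not called also changed sign. Cdh1 was at -0.047 after subtraction and -0.030 with the offset, and between -0.038 and 0.094 without each mouse. Il4ra was at 0.0054 by DESeq2 and with its size factors, 0.0096 unfiltered, 0.019 without the block, 0.018 in the model of 15 libraries and -0.090 to 0.092 without each mouse. Mki67 was at 0.0023 in the model of 15 libraries and -0.16 to 0.19 without each mouse. Muc5ac was at -0.067 after subtraction and -0.32 to 0.38 without each mouse, and Nfkbia at -0.079 to 0.19.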

Other observations

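Genes of Wnt signalling were divided between the cocktails, with 3 of 32 higher in EC and 4 higher in IPFc. Lgr5, a receptor for R-spondins and a stem cell marker of several epithelia, was at 16.6, 12.3, 12.4 and 12.5 CPM in EC and 2.99, 3.87, 5.07 and 7.75 CPM in IPFc, with vehicle at 5.61 ± 1.57 CPM (2.84-fold between the cocktails, edgeR adjusted p = 3.49e-04, and 0.0661 after the fibroblast share was subtracted, at a log2 fold change of 1.47 beside 1.51). Its relative Lgr6 had the opposite order, at 3.30 ± 1.15 CPM in EC, 11.2 ± 4.99 CPM in IPFc and 11.7 ± 4.41 CPM in vehicle (edgeR adjusted p = 8.66e-06). Nkd1, an inhibitor and target of Wnt signalling, was at 2.74 to 5.83 CPM in EC and 10.5 to 18.5 CPM in IPFc, while Sp5, another target, was at 13.4 ± 4.94 CPM in EC and 7.52 ± 3.29 CPM in IPFc.

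Of 29 club cell genes, 3 were higher in EC and 5 in IPFc. Cckar, a cholecystokinin receptor gene, was at 4.19, 6.99, 3.76 and 3.59 CPM in EC, 18.8, 25.6, 26.3 and 20.1 CPM in IPFc and 26.3 CPM on average in vehicle. Npy4r, a receptor of the pancreatic polypeptide family, was at 18.5 to 19.5 CPM in IPFc and 0.472 to 1.12 CPM in EC, and the protease-like gene Prss35 at 19.6 to 25.7 and 0.419 to 1.38 CPM. On the EC side, Noxo1, which organises an NADPH oxidase, was at 29.3 ± 4.07 against 6.46 ± 0.769 CPM, and Pdzrn3, a ubiquitin ligase, at 60.0 ± 17.3 against 7.69 ± 4.21 CPM. Among 43 genes of xenobiotic metabolism, 5 were higher in EC and 6 in IPFc. Aldh3a1, an aldehyde dehydrogenase, was 1.03 higher in EC on the log2 scale (SE 0.11) and Adh7, an alcohol dehydrogenase, 0.65 lower (log2 fold change -0.65, SE 0.13). Among the well-covered genes changed in the simulated data, fold changes under about 2-fold were recovered less often than larger ones, so small differences may be missed. Recovery of changed genes with few reads was not simulated.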
